A study of Sus scrofa with 70 samples.

Results

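Most of the genes described here make, repair and resolve the programmed DNA breaks of meiosis, hold sister chromatids together, or build the synaptonemal complex that joins homologous chromosomes, and a few others act in meiotic entry or elsewhere in germ cells around meiosis. A list of 35 such genes, chosen by name, was matched to the gene names of the deposited annotation, and 30 of them were found among 35680 genes with a transcript in the expression table. The study sequenced RNA of 5 reproductive organs (testis, epididymis, and the vesicular, prostate and bulbourethral accessory glands) of boars aged 12 months. BMI boars belong to the Banna mini-pig inbred line and DSE boars to the Diannan small-ear pig from which that line was bred, and neither received a treatment named in the labels. Each of the 10 breed and organ groups had 3 RNA-seq libraries and 1 Iso-seq library, the latter giving full-length reads of single transcripts. The labels number the replicates without saying that each came from its own boar, so the p-values below measure the spread between libraries.

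Meiosis begins in spermatocytes, which lie between the mitotic spermatogonia and the haploid spermatids in the wall of the seminiferous tubule. There SPO11 cuts DNA, DMC1 and its partners pair the cut ends with the homologous chromosome, MSH4, MSH5 and MLH3 carry some of these joints to crossovers, and SYCP and SYCE proteins close the axes of both homologs like a zipper. Accessory glands and epididymis hold no dividing germ cells, although sperm and shed germ cells pass through the epididymis.

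Levels are given as TPM, a unit that scales read numbers by transcript length and to the same total in each library, summed over the transcripts of a gene. Differences are log2 differences of TPM + 1 from limma, which understate the change of genes near 0, and a gene was called when its Benjamini-Hochberg adjusted p was below 0.05 and its difference at least 1. TPM keeps no sequencing depth, so low values carry no counting interval. Between 20773 and 25787 genes were above 0 in a library. Whole organs were sequenced, in which fewer cells of a type and less RNA per cell cannot be told apart. The libraries labelled testis held spermatid markers (13 of 14 listed genes in the table) at a summed 26430 to 120800 TPM, against 3.74 to 1118 TPM in the 24 other libraries. Replicate 2 of DSE testis stood apart from the other 5 testis libraries. Its spermatid markers summed to 26430 TPM against at least 79640, and its Leydig cell markers (9 of 10 in the table) to 64630 TPM against at most 32860. Counts and medians of breed differences in testis are given with and without it. Outside testis, DSE epididymis replicate 1 held the epididymal gene CRISP1 at 21.3 TPM against at least 1100 TPM in the other epididymis libraries. BMI prostate gland replicate 2 held AWN, a seminal plasma gene of the vesicular gland, at 52020 TPM against at most 2.91 TPM in the other prostate libraries.

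Of the 30 genes, 29 passed the filter of 1 TPM in 3 libraries, and 25 of them were higher in testis than in the mean of the other organs. None was lower. Among all 19911 genes tested, 34.5% were higher and 12.7% lower in testis. The median difference of the 29 genes was 4.09, against 0.31 for all genes, and without DSE testis replicate 2 it was 4.25 with again 25 genes higher. In 24 of the 29 the lowest testis library lay above the highest of the 24 other libraries, which 23.8% of all genes tested did. The mean level in testis reached 10 TPM in 22 members and 100 TPM in 6, and 19 members stayed below a mean of 1 TPM in each of the other 4 organs. Of cell type markers tested, 13 of 13 spermatid, 8 of 10 spermatocyte and 4 of 10 spermatogonial markers were higher in testis. So were 8 of 8 Leydig, 8 of 11 Sertoli and 6 of 7 cycling cell markers. Lower were 5 of 5 peritubular, 3 of 5 macrophage, 1 of 5 endothelial, 5 of 7 epididymis and 7 of 7 accessory gland markers. Within these lists, 2 spermatocyte, 2 spermatogonial and 1 Sertoli cell marker were lower in testis, and 1 macrophage marker was higher. The part of organ makeup in these differences was not tested.

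**Figure D1:**
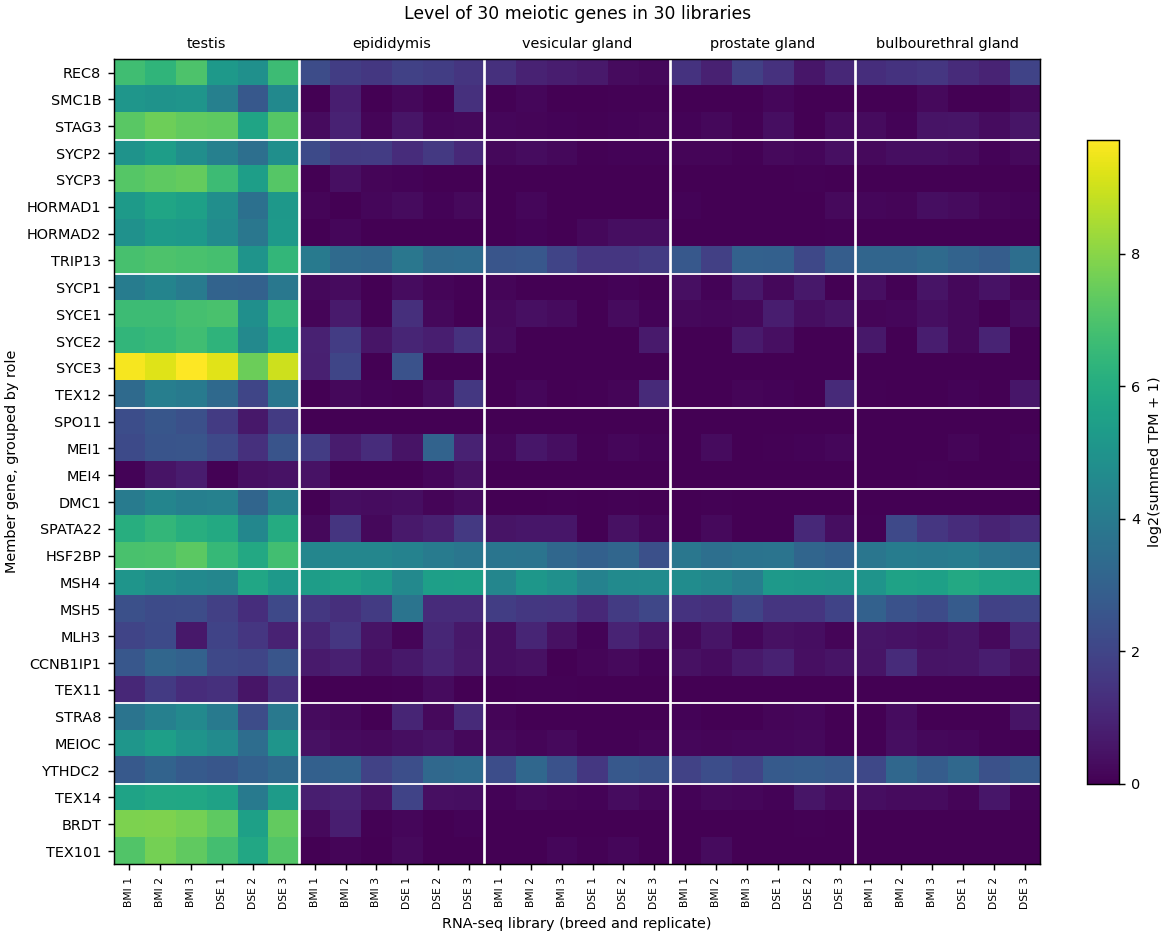
Level of the 30 genes (rows, grouped by role) in the 30 RNA-seq libraries (columns, by organ, breed and replicate), as log2(summed TPM + 1) on the colour scale. The 6 testis columns are bright in most rows, DSE testis replicate 2 is dimmer than its neighbours, and TRIP13, HSF2BP, MSH4, MSH5 and YTHDC2 are above background in every column.

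The central region of the synaptonemal complex, the ladder of short proteins between both chromosome axes, held the most abundant member. SYCE3, a small central element protein, measured 776, 603 and 843 TPM in BMI testis replicates 1, 2 and 3 and 622, 186 and 506 TPM in DSE testis replicates 1, 2 and 3. Outside testis it was listed at 0 in all accessory gland libraries and in 3 epididymis libraries, while the other 3 epididymis libraries held 0.819, 3.14 and 4.41 TPM. All testis libraries were thus above all others, and the difference was 8.84 (SE 0.27, adjusted p = 1.19e-19). TEX12, which assembles with SYCE2 into fibres, had the smallest difference of the group at 3.20 (SE 0.22, adjusted p = 2.32e-12). Its testis levels were 9.21, 16.8 and 15.04 TPM in BMI and 9.01, 3.10 and 13.2 TPM in DSE, and its levels elsewhere ranged from 0 to 2.0 TPM with a median of 0.0549. SYCE2 measured 82.4, 89.5 and 105 TPM in BMI testis and 78.6, 22.6 and 56.1 TPM in DSE testis, against a median of 0.280 and a highest value of 2.28 TPM elsewhere (difference 5.59, SE 0.20). The other central element protein, SYCE1, averaged 91.4 ± 33.7 TPM in testis (SD, n = 6). SYCP1, the transverse filament that bridges both axes, averaged 13.3 ± 5.0 TPM. Both rose, by 6.10 and 3.54.

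The 250 bases before the start of the most abundant testis transcript were read from Sscrofa11.1 for SYCE3, the most abundant member, and for SYCE2, which holds the letters GGCAGTT there, as 2 of 30 members did on either strand. These letters are the core bound by A-MYB, a transcription factor known for switching on genes of the pachytene stage, and they are in capitals, as AACTGCC since they lie on the opposite strand. Both sequences are on the plus strand, 5′ to 3′.
SYCE3, chr5:168661-168910: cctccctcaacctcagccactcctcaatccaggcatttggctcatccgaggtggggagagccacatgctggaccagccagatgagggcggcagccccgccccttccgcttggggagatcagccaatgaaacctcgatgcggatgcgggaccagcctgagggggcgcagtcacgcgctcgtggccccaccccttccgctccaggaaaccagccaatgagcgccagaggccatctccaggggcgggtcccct
SYCE2, chr2:66118725-66118974: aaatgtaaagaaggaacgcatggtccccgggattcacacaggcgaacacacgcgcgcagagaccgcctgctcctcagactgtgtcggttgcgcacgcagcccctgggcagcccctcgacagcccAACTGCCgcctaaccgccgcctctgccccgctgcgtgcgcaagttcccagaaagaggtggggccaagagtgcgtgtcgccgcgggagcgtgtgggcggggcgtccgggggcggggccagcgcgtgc
The share of members with GGCAGTT was 6.67%, against 3.25% of 19437 genes. Of the other motifs searched on both strands, the E2F letters GGCGGGAA were present for 3 members (SMC1B, MSH5 and CCNB1IP1), 10% against 3.12%. The E-box CACGTG was present for SYCP1 and TEX12, 6.67% against 7.72%. The cAMP response element TGACGTCA was present for none, against 2.32%. No motif contains another in full, and a match describes letters, not binding. The transcript starts used for SYCE3 and SYCE2 lie at -12145 and -9517 bases from the annotated gene start, upstream of it. Some members had starts inside the annotated gene, such as STRA8 (14988 bases) and TRIP13 (388 bases). For MSH4 the transcript over RefSeq MSH4 was used in place of the most abundant one.

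Cohesins, the rings that hold sister chromatids together, were represented by 3 meiotic subunits, and all 3 rose in testis. STAG3 measured 151, 188 and 166 TPM in BMI testis and 157, 49.8 and 140.2 TPM in DSE testis, with a highest value of 0.894 TPM elsewhere (difference 6.79, SE 0.16, adjusted p = 1.01e-21). REC8, the subunit that the cohesin-cutting protease opens in meiosis, measured 105, 80.6 and 127 TPM in BMI and 37.6, 28.3 and 100.2 TPM in DSE. Its difference was 4.88 (SE 0.20, adjusted p = 3.21e-17), and its other libraries ranged from 0.167 to 3.82 TPM with a median of 1.56. REC8 was above 0 in every library, and none outside testis reached the lowest testis level. SMC1B measured 33.5, 30.6 and 32.8 TPM in BMI testis and 17.8, 5.48 and 23.5 TPM in DSE testis, against a median of 0 and a highest value of 1.52 TPM elsewhere (difference 4.31, SE 0.19). All 3 DSE values of SMC1B were below all 3 BMI values, and the lowest was in replicate 2.

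Transcripts of the chromosome axis genes rose in 5 of 5 members. SYCP3, the main axis filament, measured 142, 157 and 171 TPM in BMI testis and 100.5, 43.2 and 142 TPM in DSE testis. Its highest value elsewhere was 0.302 TPM, and its difference was 6.84 (SE 0.14, adjusted p = 1.06e-22). SYCP2, its partner in the filament, measured 31.2, 41.4 and 26.7 TPM in BMI and 17.7, 10.8 and 27.5 TPM in DSE (difference 4.09, SE 0.13), against 0.0305 to 3.51 TPM elsewhere with a median of 0.188. Unlike SYCP3, it was also measured in every epididymis library, at 1.16 to 3.51 TPM. HORMAD1 and HORMAD2, which mark unsynapsed axes, averaged 34.7 ± 14.3 and 29.9 ± 9.64 TPM in testis (SD, n = 6) and at most 0.281 TPM in any other library, with differences of 4.91 and 4.82. TRIP13, the ATPase that strips HORMAD proteins from synapsed axes and also acts in the spindle checkpoint of dividing somatic cells, had the smallest difference of the group. It measured 118, 127 and 122 TPM in BMI testis and 115, 32.1 and 85.5 TPM in DSE testis, against 1.91 to 14.5 TPM elsewhere with a median of 6.98 (difference 3.71, SE 0.20, adjusted p = 7.92e-15). Testis libraries of TRIP13 did not overlap the others, although none of those was below 1.91 TPM.

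Of 3 genes of break formation, 2 rose. SPO11, the enzyme that cuts DNA, measured 3.89, 5.02 and 4.14 TPM in BMI testis and 2.27, 0.530 and 2.26 TPM in DSE testis. It was listed at 0 in every other library except DSE epididymis replicate 1 with 0.0246 TPM, and its difference was 1.88 (SE 0.11, adjusted p = 4.58e-14). MEI1, required for breaks in mouse, measured 3.57, 4.72 and 4.91 TPM in BMI and 3.46, 1.55 and 4.83 TPM in DSE, a difference of 1.78 (SE 0.23, adjusted p = 1.31e-07). Its range elsewhere was 0 to 7.57 TPM with a median of 0.115, so that 1 epididymis library lay above all testis libraries. MEI4, a partner of the break machinery, did not pass the filter, with 0.317 ± 0.235 TPM in testis (SD, n = 6) and at most 0.373 TPM elsewhere.

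Strand exchange genes rose in 3 of 3 members. DMC1, the meiotic recombinase that carries a broken strand into the homolog, averaged 16.3 ± 4.34 TPM in testis (SD, n = 6) and at most 0.287 TPM elsewhere (difference 3.99, SE 0.11). SPATA22, which covers single strands together with MEIOB, measured 67.5, 86.2 and 66.9 TPM in BMI testis and 58.4, 21.7 and 62.6 TPM in DSE testis. Elsewhere it ranged from 0 to 3.45 TPM with a median of 0.463, and the difference was 5.16 (SE 0.24). HSF2BP, which brings BRCA2 to meiotic breaks, measured 122, 126 and 152 TPM in BMI and 91.5, 57.1 and 108 TPM in DSE, against 4.25 to 21.3 TPM elsewhere with a median of 12.6. Its difference of 3.01 (SE 0.14, adjusted p = 4.23e-16) was the smallest of the group, with no overlap between testis and other libraries.

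Of 5 crossover genes, 2 rose. CCNB1IP1, a ligase of crossover sites, averaged 5.33 ± 2.06 TPM in testis (SD, n = 6) and 0.468 ± 0.302 TPM elsewhere (difference 2.07, SE 0.12), and TEX11, which binds the axis and is linked to male infertility, 1.36 ± 0.561 and 0.0166 TPM (difference 1.18, SE 0.10). MLH3, an endonuclease subunit of crossover resolution, measured 2.97, 3.53 and 0.551 TPM in BMI testis and 2.86, 1.93 and 0.901 TPM in DSE testis, against 0.0679 to 1.89 TPM elsewhere. Replicate 3 was the low library in both breeds. Its adjusted p was 0.000106, but its difference of 0.98 (SE 0.20) was just under the size required, and without replicate 3 of all groups it was 1.33 and passed. The 6 transcripts named MLH3 overlap ACYP1 most in RefSeq, and they were kept. MSH5, which forms a clamp with MSH4, measured 4.19, 3.72 and 3.85 TPM in BMI testis and 2.57, 1.41 and 3.44 TPM in DSE testis, against 1.15 to 12.4 TPM elsewhere with a median of 2.22. These ranges overlapped, and the difference was 0.17 (95% interval -0.34 to 0.68, adjusted p = 0.544).

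MSH4 had no testis excess under its gene name. The sum was 32.3, 27.2 and 23.5 TPM in BMI testis and 21.2, 53.1 and 36.7 TPM in DSE testis, against 16.8 to 56.9 TPM elsewhere with a median of 34.5 (difference -0.09, SE 0.16, adjusted p = 0.59). Its transcripts overlap 2 RefSeq genes, however. RefSeq places MSH4 at chr6:137410820-137524459 and the next gene, RABGGTB, a subunit of the enzyme that attaches lipid anchors to Rab proteins, at chr6:137525063-137534132 (Sscrofa11.1). Each transcript was given to the RefSeq gene that its exons overlap most. Of the 7 transcripts named MSH4, 1 lies over RefSeq MSH4 and 6 over RABGGTB in this sense. The split is not clean, since the 6 together span chr6:137520340-137636318. That span begins inside RefSeq MSH4 and ends beyond RABGGTB. The MSH4 transcript measured 3.27, 3.93 and 2.37 TPM in BMI testis and 2.97, 0.506 and 2.67 TPM in DSE testis, and at most 0.127 TPM elsewhere. The RABGGTB transcripts summed to 29.7 ± 12.6 TPM in testis (SD, n = 6) and 34.8 ± 11.2 TPM elsewhere (SD, n = 24), and were highest among testes in DSE replicate 2 with 52.6 TPM. When the 6 transcripts over RABGGTB were left out, a choice made after these values were seen, MSH4 was higher in testis by 1.71 (SE 0.13, adjusted p = 1.07e-11) and 26 of 29 members were called. Most of the level under the MSH4 name thus lay on transcripts over RABGGTB in every testis library.

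**Figure D2:**
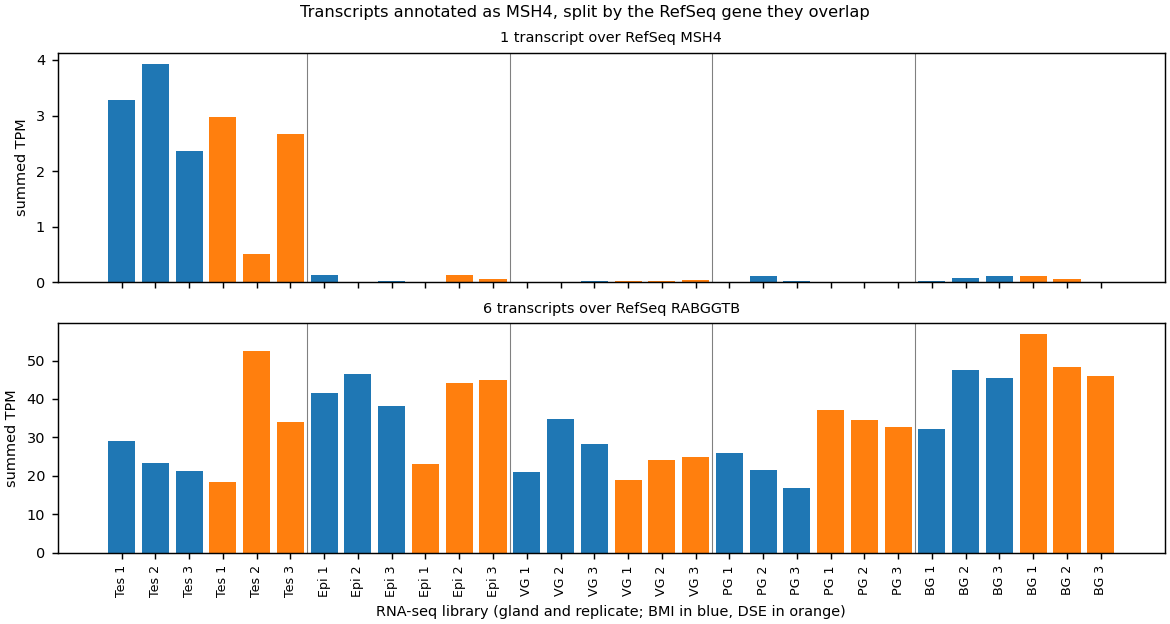
Summed TPM of the transcripts named MSH4 in each RNA-seq library, with BMI in blue and DSE in orange, for the transcript over RefSeq MSH4 (top) and the 6 over RefSeq RABGGTB (bottom); the scales differ. The upper bars are confined to testis apart from values of at most 0.127 TPM, and the lower bars reach from 16.8 to 56.8 TPM in the other organs.

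Among genes of meiotic entry, STRA8, the retinoic acid target that starts meiosis, averaged 14.3 ± 6.28 TPM in testis (SD, n = 6) and 0.162 TPM elsewhere (difference 3.61, SE 0.18). MEIOC, which keeps cells in the meiotic programme, measured 33.5, 44.3 and 31.5 TPM in BMI testis and 25.01, 10.1 and 32.2 TPM in DSE testis, against at most 0.405 TPM elsewhere (difference 4.61, SE 0.14, adjusted p = 6.14e-20). YTHDC2, the RNA helicase that works with MEIOC, did not share that pattern. It measured 5.55, 7.45 and 5.80 TPM in BMI and 5.10, 7.0 and 9.02 TPM in DSE, within the range of 1.96 to 9.64 TPM elsewhere, whose median was 5.45 (difference 0.29, 95% interval -0.13 to 0.71, adjusted p = 0.196).

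The remaining 3 members are germ cell genes active in or around meiosis, and all 3 rose. BRDT, a bromodomain reader of acetylated histones in spermatocytes and spermatids, measured 224, 227 and 205 TPM in BMI testis and 156, 45.5 and 164 TPM in DSE testis, with at most 0.780 TPM elsewhere (difference 7.19, SE 0.16, adjusted p = 7.12e-22). TEX14, which keeps the bridges between germ cells open, measured 49.3, 55.5 and 55.0 TPM in BMI and 47.8, 15.2 and 39.5 TPM in DSE, against at most 2.92 TPM elsewhere (difference 4.99, SE 0.19). TEX101, a germ cell surface protein, averaged 134 ± 49.9 TPM in testis (SD, n = 6) and at most 0.218 TPM elsewhere (difference 6.93, SE 0.12).

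For comparison, 59 other meiotic genes were listed, of which 48 were in the table and 47 tested. In testis 34 were higher and none lower, with a median difference of 2.20, beside 34.5% of all genes higher and 12.7% lower. The largest differences were those of IHO1, a break factor, at 7.90, SPDYA, which anchors telomeres with CDK2, at 6.36, and CCNA1, a meiotic cyclin, at 5.58. IHO1 averaged 482 ± 193 TPM in testis (SD, n = 6). At the other end stood MUS81, a nuclease also used by somatic cells (-0.63), TOP3A, a topoisomerase (-0.61), and ATM, a damage kinase (-0.45), none of which reached the size required. Among 21 somatic relatives of the members, 20 were tested, 6 were higher and none lower, with a median of 0.53, and a share of 6 in 20 lies below the 34.5% of all genes. MAD2L2 and MAD2L1, which act in DNA repair and the spindle checkpoint, had differences of 3.18 and 2.16. STAG2, the ubiquitous counterpart of STAG3, averaged 9.18 ± 4.53 TPM in testis and 18.4 ± 8.61 TPM elsewhere (-0.90), and SMC1A, the counterpart of SMC1B, and RPA1 had differences of -0.45 and -0.28.

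Outside testis, 11 members had a mean of at least 1 TPM in some organ. Besides YTHDC2, MSH5 and the MSH4 name, whose ranges are given above, they were REC8, SYCP2, SYCE2, SYCE3, MEI1, TRIP13, HSF2BP and SPATA22. TRIP13 averaged 10.8 TPM in epididymis, 8.24 in bulbourethral, 5.23 in prostate and 3.20 in vesicular gland, and HSF2BP 18.4, 13.8, 10.6 and 8.85 TPM in the same order. For both genes the libraries of neighbouring organs in this order overlapped. REC8 averaged 2.53 TPM in epididymis, 1.69 in bulbourethral, 1.39 in prostate and 0.686 in vesicular gland, again with neighbours overlapping. SPATA22 was above 1 TPM on average in bulbourethral gland alone, at 1.5 ± 1.14 TPM (SD, n = 6), with a range of 0.0459 to 3.45 TPM.

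Epididymis was compared with the 3 accessory glands, since germ cells shed from the testis pass through it. SYCP2 and MEI1 were higher there, 2 of 29 genes, and none was lower, against 17.6% higher and 2.43% lower of all genes tested. The median difference was 0.23 in the members and 0.41 in all genes. SYCP2 measured 3.51, 2.25 and 2.28 TPM in BMI epididymis and 1.36, 2.05 and 1.16 TPM in DSE epididymis, against 0.0305 to 0.313 TPM in the accessory glands (difference 1.39, SE 0.13, adjusted p = 6.35e-09). No epididymis library of SYCP2 overlapped the accessory glands. MEI1 measured 2.31, 0.677 and 1.33 TPM in BMI and 0.421, 7.57 and 0.922 TPM in DSE, against at most 0.491 TPM in the accessory glands (difference 1.25, SE 0.23, adjusted p = 9.82e-05). The value of 7.57 TPM in DSE replicate 2 stood far above the rest, and without replicate 2 of all groups the difference was 1.0 with an adjusted p of 4.66e-05. Scaling by size factors brought MEI1 to 0.98, and Ensembl transcripts alone brought SYCP2 to 0.93, both under the size required. Without DSE epididymis replicate 1 and BMI prostate gland replicate 2, a choice made after seeing the data, the same 2 genes were called, MEI1 at 1.51 and SYCP2 at 1.41. With a pseudocount of 0.1 in place of 1, which weights low levels more, 11 of 29 members were called higher, against 28.0% of all genes, and the median difference was 0.70 in the members and 0.59 in all genes. TRIP13 at 0.94, SYCE3 at 0.89, SYCE2 at 0.80, HSF2BP at 0.72, REC8 at 0.70 and TEX14 at 0.60 had adjusted p-values below 0.05 but differences under the size required.

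Spermatid markers varied widely among the epididymis libraries, from a summed 23.6 TPM in DSE replicate 2 to 1118 TPM in BMI replicate 2, with 272 TPM in DSE replicate 1. The 2 highest of these libraries also held the highest SYCE3 values of 3.14 and 4.41 TPM. The MEI1 peak of 7.57 TPM, in contrast, fell in the library with the lowest spermatid sum, and SYCP2 was highest in BMI replicate 1 with a spermatid sum of 136 TPM. Peritubular markers, 5 of 5 called higher in epididymis than in the accessory glands, summed to 20840 TPM in DSE replicate 2. In the other epididymis libraries they summed to 2291 to 13750 TPM, highest in BMI replicate 1. Spermatocyte markers that are not members (10 of 12 in the table) summed to 12.5 to 24.9 TPM in epididymis, 13.2 to 41.8 TPM in the accessory glands and 298 to 1354 TPM in testis. Of these 10 markers 8 were higher in testis, while OVOL1 and OVOL2 were lower there, and OVOL2 alone held 5.81 to 14.9 TPM in epididymis. PGK2, a glycolytic enzyme of meiotic and later germ cells, was listed at 0 in all accessory gland libraries. In epididymis it held 0.197, 3.82 and 0.0953 TPM in BMI and 0.520, 0 and 0.0449 TPM in DSE, highest in the library with the highest spermatid sum. The part of passing germ cells or of organ makeup in the epididymis levels was not tested.

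Between breeds in testis, no member passed the test, against 0.213% of 16414 genes higher and 0.372% lower in DSE. At an unadjusted p below 0.05 there were 8 of 29, against 13.4% of all genes. Means were lower in DSE than in BMI for 27 of 29 members, as for 57.7% of all genes, and the median difference was -0.77 in the members and -0.10 in all genes. In 12 members all 3 DSE libraries lay below all 3 BMI libraries, against 17.0% of all genes. The 2 members with a higher mean in DSE were MSH4, by the transcripts over RABGGTB, and YTHDC2. No gene of the cell type marker lists was called between breeds in testis either. With all 6 libraries, differences were below 0 for 13 of 13 spermatid markers (median -0.69), 9 of 9 spermatocyte markers that are not members (-0.66), 7 of 7 genes of cycling cells (-0.66) and 39 of 47 other meiotic genes (-0.49). They were above 0 for 8 of 8 Leydig (0.51) and 10 of 11 Sertoli cell markers (0.47). Without DSE testis replicate 2 these were 8 of 13 spermatid (median -0.10), 7 of 9 spermatocyte (-0.13), 6 of 7 cycling (-0.21) and 36 of 47 other meiotic genes (-0.16) below 0, with 5 of 8 Leydig (0.09) and 9 of 11 Sertoli cell markers (0.20) above 0. The part of cell makeup in the breed differences was not tested.

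The difference was smaller without DSE testis replicate 2. Without it, 25 of 29 members were lower in DSE, where 61.0% of all genes were, but the median difference was -0.31 and again no member passed the test, against 0.656% of all genes higher and 0.854% lower. In 12 members both remaining DSE libraries lay below all 3 BMI libraries, against 21.2% of all genes. The largest differences with all libraries were those of SMC1B at -1.21 (SE 0.47, adjusted p = 0.33), REC8 at -1.09 (SE 0.46, adjusted p = 0.358) and SPO11 at -1.07 (SE 0.34, adjusted p = 0.253). Without replicate 2 the differences of means were -0.63, -0.73 and -0.71. SYCP1 and CCNB1IP1 also kept differences of -0.66 and -0.63, from -0.83 and -0.72. STAG3 and SYCE1, in contrast, moved from -0.70 and -0.68 to -0.18 and -0.07. When all organs were fitted together, so that organs with levels near 0 shared the estimate of the spread, SPO11 (adjusted p = 0.000656), SMC1B (0.0287) and BRDT (0.0266) were called lower in DSE testis with the same differences, where 1.06% of all genes were called higher and 3.69% lower. The difference of BRDT, -1.04 with all libraries, was -0.45 without replicate 2.

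**Figure D3:**
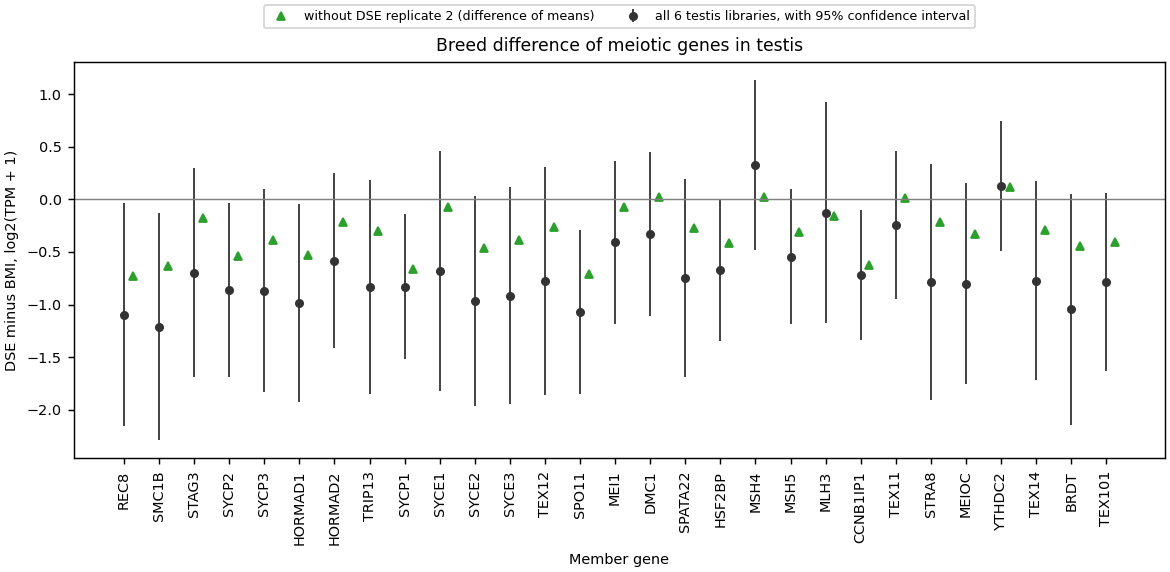
Difference between DSE and BMI testis in log2(TPM + 1) for the 29 genes tested, with the 95% interval from the fit of all 6 testis libraries (circles) and the difference of means without DSE replicate 2 (triangles). Nearly all circles lie below 0, and most triangles lie closer to 0 than the circles.

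The breed difference in testis was also compared with the mean breed difference of the other 4 organs. SPO11, 1 of 29 members, was called, with -1.07 in testis and 0.00 in the other organs (difference of differences -1.08, SE 0.22, adjusted p = 0.00272), where 0.809% of all genes were called higher and 3.01% lower. Without DSE testis replicate 2 it was -0.71 with an adjusted p of 0.000491, below the size required. Leaving out replicate 1, 2 or 3 of all groups gave SPO11 differences of -1.32, -0.62 and -1.28 with adjusted p-values of 0.058, 0.0673 and 0.0767. All 3 DSE testis values of SPO11 (2.27, 0.530 and 2.26 TPM) lay below the lowest BMI value of 3.89 TPM. SPO11 was at or near 0 outside testis, so this contrast restates its testis difference with a spread estimated in part from libraries at 0, and it does not show that the breeds differ in SPO11 by organ.

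Breed differences in the other organs could be tested for few members, and none was called. In epididymis 9 members were tested, where 0.0% of all genes were called in either direction, 294 genes of 15402 having an unadjusted p below 0.05. In vesicular gland 5 were tested (0.197% of all genes higher, 0.624% lower). TRIP13 there had a difference of -0.82 (SE 0.28, adjusted p = 0.198) and HSF2BP one of -0.72 (SE 0.31, adjusted p = 0.257), beside a median of -0.42 over all genes. After scaling by size factors that median was 0.03 and no member had an unadjusted p below 0.05. In prostate gland 6 were tested (0.318% higher, 0.037% lower), where YTHDC2 differed by 0.69 (SE 0.18, adjusted p = 0.0875) and the transcripts named MSH4, which there lay almost wholly over RABGGTB, by 0.69 (SE 0.21, adjusted p = 0.0938), beside a median of 0.39 over all genes. Without BMI prostate gland replicate 2, YTHDC2 differed by 0.81 (adjusted p = 0.0358), under the size required, and still no member was called, where 6.02% of all genes were called higher and 1.01% lower. In bulbourethral gland 7 were tested (0.0799% higher, 0.00726% lower), with no unadjusted p below 0.05.

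DSE testis replicate 2 had the lowest level of the 6 testis libraries for 26 of 29 members, as it did for 40.3% of all genes. Its ratio to the median of the other 5 libraries was below 0.5 for 25 members and for 30.2% of all genes. The median ratio was 0.316 in the members and 0.921 in all genes. SPO11 had the lowest ratio (0.136), followed by SMC1B (0.179), BRDT (0.222) and TEX12 (0.234). DMC1 and SYCP1 reached 0.450 and 0.457, HSF2BP 0.467 and CCNB1IP1 0.600. The exceptions were MLH3 at 0.675, YTHDC2 at 1.21 and MSH4 at 1.95, of which MSH4 was highest in this library. The MSH4 transcript over the RefSeq gene, with 0.506 TPM against 2.37 to 3.93 TPM, was low in this library as the other members were.

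**Figure D4:**
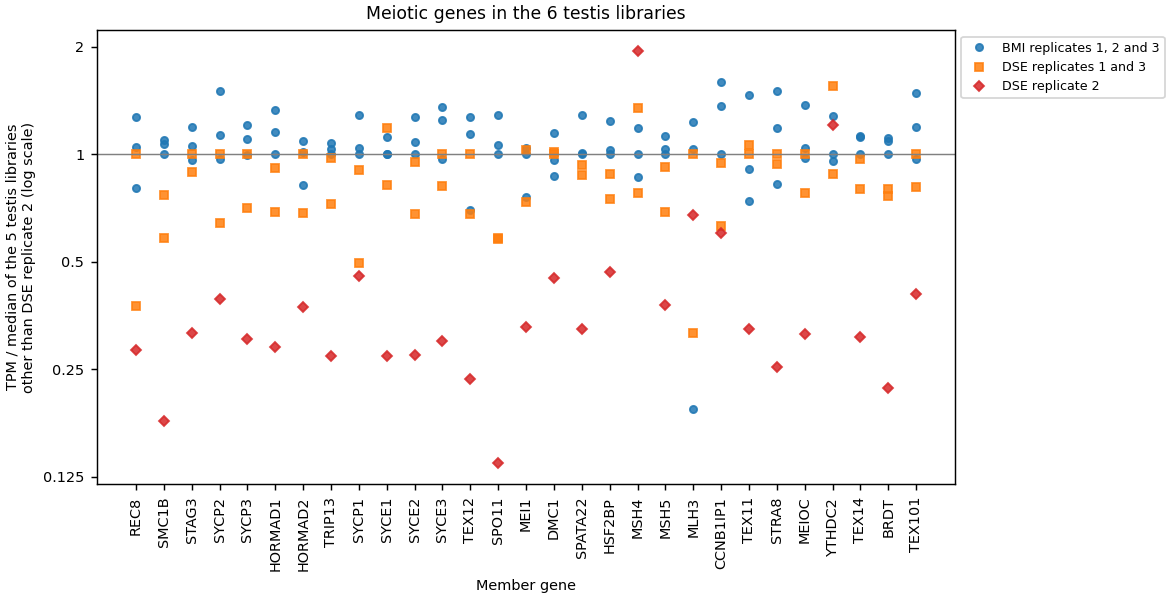
TPM of the 29 genes in each testis library divided by the median of the 5 libraries other than DSE replicate 2, on a log axis, with BMI as circles, DSE replicates 1 and 3 as squares and DSE replicate 2 as diamonds. For 25 genes the diamond lies below 0.5, and MSH4 and YTHDC2 have it above 1.

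Median ratios in the same library were 0.315 for spermatocyte markers that are not members, 0.260 for spermatids, 0.316 for genes of cycling cells and 0.394 for the other meiotic genes. They were 0.876 for spermatogonia and 0.781 for the somatic relatives. Median ratios above 1 were found for Sertoli (2.64), Leydig (2.67), peritubular (1.70), endothelial (1.78) and macrophage markers (1.77). Of 11 Sertoli cell markers, 1 went the other way, TF, with a ratio of 0.121. Leydig markers summed to 64630 TPM in this library and to 18960 to 32860 TPM in the other 5, and Sertoli markers to 4273 against 1201 to 2187 TPM. Most of each sum in this library came from 1 gene, INSL3 with 42360 TPM and CLU with 3558 TPM. The part of cell makeup in the low levels of the members was not tested.

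The 30 genes had 166 transcripts in the table, of which 109 were isoforms first assembled from Iso-seq reads. In 18 of 30 genes the most abundant testis transcript was such an isoform, and so it was in 54.5% of 16414 genes. A median of 87.6% of a member's testis TPM fell on Iso-seq isoforms, and 24 top transcripts held most of their gene's level. Neither value was computed for all genes, so they are descriptions only. The 24 include SYCE1, TEX12 and MEI4, whose single transcript holds the whole gene by definition. SYCE3 was read almost wholly from PB.14048.1 (584 ± 232 TPM, SD, n = 6, 99.1% of the gene), a transcript of 3 exons and 473 bases with a predicted protein of 109 residues. The top transcripts of SYCP3 (PB.14975.2, 90.5%) and CCNB1IP1 (PB.18019.348, 98.1%) held nearly the whole of their genes as well, by Salmon's estimate. PB.13982.77 of BRDT (42.9%), PB.11598.266 of STAG3 (39.1%) and PB.3685.163 of TEX14 (40.4%) shared their genes with 8, 11 and 7 transcripts of at least 1 TPM, themselves included. The latter, alone among these, was predicted to undergo nonsense-mediated decay.

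The other top transcripts from Iso-seq were PB.6096.211 (HORMAD2), PB.13767.2 (SYCP1), PB.10541.12 (SYCE2), PB.14150.3 (MEI1), PB.3826.4 (SPATA22), PB.17447.1 (MSH5), PB.21361.2 (TEX11), PB.9405.2 (STRA8), PB.3567.44 (MEIOC), PB.11143.5 (YTHDC2), PB.15729.2 (TEX101) and PB.8623.14 (TRIP13). By Salmon's estimate they held from 23.9% of the gene for YTHDC2 to 81.8% for MSH5. Full-length reads in testis were few for some of them. PB.11143.5 had 0 in both testis Iso-seq libraries. PB.9405.2, with 4 exons where the reference has 10, had 1 in BMI and 1 in DSE testis. PB.17447.1 had 1 in BMI and 2 in DSE testis. Ensembl transcripts led in the other 12, namely ENSSSCT00000002239 (REC8), ENSSSCT00000044342 (SMC1B), ENSSSCT00000092278 (SYCP2), ENSSSCT00000007285 (HORMAD1), ENSSSCT00000011794 (SYCE1), ENSSSCT00000101252 (TEX12), ENSSSCT00000075218 (SPO11), ENSSSCT00000060382 (MEI4), ENSSSCT00000000109 (DMC1), ENSSSCT00000025735 (HSF2BP), ENSSSCT00000004178 (MSH4, over RABGGTB) and ENSSSCT00000050288 (MLH3). SYCE1, TEX12 and MEI4 had a single transcript each. Of 96 member transcripts tested, 75 were higher in testis and 1 lower, against 28.4% and 9.53% of 64661 transcripts. The lower one, PB.16783.3 (-1.41, SE 0.20, adjusted p = 1.76e-06), carries the MSH4 name but lies over RABGGTB.

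Shares of a transcript in its gene could be compared between testis and the other organs for 22 transcripts of 5 members, those with at least 1 TPM in every library. Of these 3 were higher and 4 lower in testis by at least 0.1, against 12.5% and 9.63% of 34822 transcripts. The largest change was in TRIP13. PB.8623.14 took 55.8%, 59.9% and 53.9% of TRIP13 TPM in BMI testis and 56.1%, 42.6% and 47.4% in DSE testis. In the other libraries it was at 0 except for 7.07% in BMI epididymis replicate 2 (difference of shares 0.52, SE 0.01, adjusted p = 7.35e-19). ENSSSCT00000045068, the main Ensembl transcript, held a mean of 36.5% in testis and 73.5% elsewhere (difference -0.37, SE 0.04, adjusted p = 8.73e-08). PB.8623.12, an isoform with a retained intron, held 1.77% and 14.4% (difference -0.13, adjusted p = 0.00158). The level of ENSSSCT00000045068 was itself higher in testis, at 15.4 to 43.7 TPM, against at most 11.3 TPM elsewhere.

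**Figure D5:**
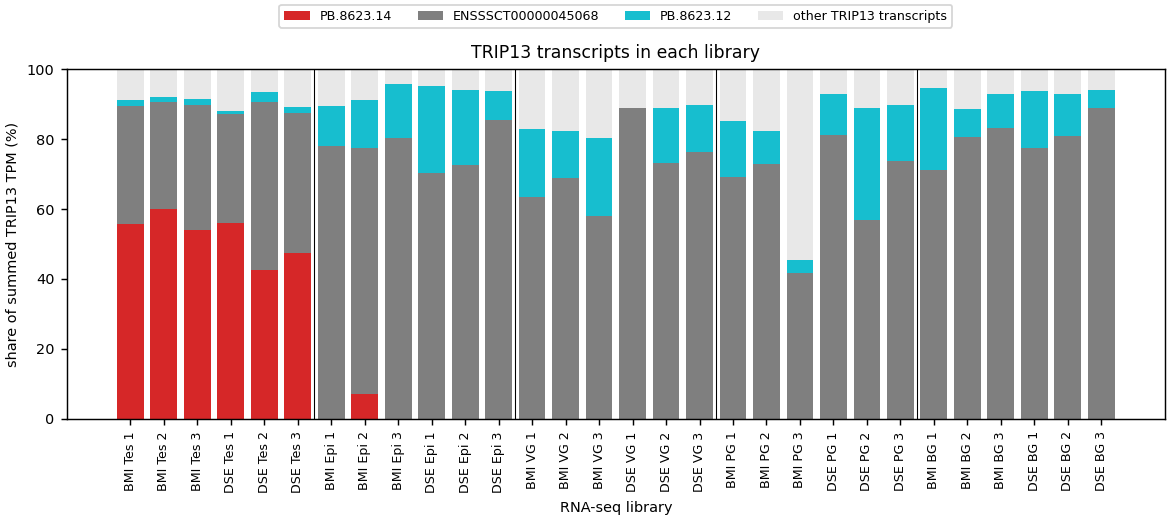
Share of each TRIP13 transcript in the summed TRIP13 TPM of each RNA-seq library, in percent, with PB.8623.14 in red, ENSSSCT00000045068 in dark grey, PB.8623.12 in cyan and all other transcripts in light grey. Red fills 42.6% to 59.9% of the 6 testis bars and appears in 1 other bar, BMI epididymis replicate 2, at 7.07%.

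PB.8623.14 has 9 exons and 1138 bases, a predicted protein of 136 residues, and ends 5335 bases before the end of ENSSSCT00000045068. TRIP13 lies at chr16:79447984-79474402 on the minus strand of chromosome 16. The genome after its end held 15% A. The last 30 bases of this isoform and of ENSSSCT00000045068 are shown because the isoforms differ in where they end. Capitals mark a polyadenylation signal. The search covered the hexamer AATAAA as well as its variant ATTAAA and the rarer variant GATAAA. Both stretches are written in the sense of the transcript from Sscrofa11.1.
PB.8623.14, chr16:79464182-79464211, minus strand: cacgttcgagtGATAAAgacgtaaaacagg
ENSSSCT00000045068, chr16:79458847-79458876, minus strand: tagagactttaaacATTAAAattcttttcc
Full-length reads gave another picture than TPM. Of 68 TRIP13 reads in the testis Iso-seq libraries, 2 were PB.8623.14 (2.94%, exact 95% interval 0.358% to 10.2%) and 47 were PB.8623.12 (69.1%, 56.7% to 79.8%). In the other organs 13 of 21 reads were PB.8623.12 and none was PB.8623.14 (exact 95% interval 0.0% to 16.1%). The read counts of the libraries sum to 60 for PB.8623.12, while a separate total in the deposited table gives 16. Short-read shares and full-length reads thus rank these isoforms in opposite order in testis, and Iso-seq had 1 library for each breed.

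HSF2BP changed its shares as well. ENSSSCT00000025735, of 9 exons, held a mean of 81.7% in testis and 69.3% elsewhere (difference 0.12, SE 0.04, adjusted p = 0.00802), and ENSSSCT00000077069, of 8 exons, the rest. In testis the lowest share of ENSSSCT00000025735 was 70.7%, in DSE replicate 2. Without replicate 3 the adjusted p was 0.165. These shares leave out 9 Iso-seq transcripts that carry the gene ID of HSF2BP but no gene name. They summed to 22.3 ± 5.67 TPM in testis (SD, n = 6) and 11.3 ± 3.32 TPM elsewhere (SD, n = 24). With them, HSF2BP measured 132 ± 35.2 TPM in testis and 24.2 ± 5.28 TPM elsewhere, and the difference of log2 means moved from 3.01 to 2.38. No other member had transcripts of this kind. In the MSH4 name, ENSSSCT00000004178 held a mean of 80.0% in testis and 67.7% elsewhere (adjusted p = 0.00482). PB.16783.3 held 7.16% and 23.9% (adjusted p = 2.45e-05), and both lie over RABGGTB. Without replicate 2 or 3 the adjusted p of ENSSSCT00000004178 was 0.0559 or 0.0731. Between breeds in testis, no share of 70 member transcripts was called, against 0.126% of all transcripts higher and 0.225% lower, and 3 had an unadjusted p below 0.05, against 9.0% of all transcripts.

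Iso-seq gave 2877 full-length reads of 137 isoforms for the members, fusion isoforms left out. The testis libraries held 2476 of them (86.1%, 95% interval 84.7% to 87.3%), where they held 26.3% of all full-length reads. Members took 0.271% of the reads in BMI testis and 0.271% in DSE testis, and 0.0105% to 0.0233% in the other 8 libraries, whose totals ranged from 231413 to 458697 reads. These intervals cover counting error only, since amplified reads are not independent molecules, and each group had 1 library. BRDT had the most reads (840), followed by STAG3 (606), HSF2BP (321), YTHDC2 (185) and TEX14 (185). SYCE3, first by TPM, had 14 reads of 1 isoform, PB.14048.1. HSF2BP and YTHDC2 together held most member reads outside testis, with 166 and 160.

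The full 9-exon isoform of HSF2BP, PB.5645.3, made up 117 of 155 HSF2BP reads in testis (75.5%, 67.9% to 82.0%) and 58 of 166 elsewhere (34.9%, 27.7% to 42.7%). Isoforms of 4 exons had larger shares elsewhere, with PB.5645.12 at 28 reads (16.9%) against 3 in testis (1.94%) and PB.5645.15 at 22 reads (13.3%) against 7 (4.52%). Of the 137 isoforms, 98 (71.5%, 63.2% to 78.9%) had a splice site absent from the Ensembl annotation, against 50.3% of all 110996 isoforms. Reads in testis libraries alone were found for 88 (64.2%, 55.6% to 72.2%), against 16.8% of all. A coding sequence was predicted for 95.6% of them (90.8% of all) and nonsense-mediated decay for 15.3% (20.1% of all). STAG3 had 18 isoforms, all with unannotated splice sites, and HSF2BP 14, YTHDC2 13, BRDT and TRIP13 11 each. No isoform was found for TEX12 or MEI4, nor over the RefSeq locus of MSH4, and the isoforms named MSH4 over RABGGTB were left out of these counts.

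The 5 members without a gene name in the annotation were TEX15, RAD21L1, MEIOB, PRDM9 and RNF212. Transcripts over the RefSeq loci of 4 of them were summed as a description, and PRDM9, the histone methyltransferase that places breaks in many mammals, was not analysed here. TEX15, a large germ cell protein of break repair and transposon silencing, had 49.6 ± 22.6 TPM in testis (SD, n = 6) and 0.605 ± 1.20 TPM elsewhere (SD, n = 24). Of its testis values, DSE replicate 2 was lowest with 16.7 TPM, and BMI replicates 1, 2 and 3 held 66.2, 69.2 and 68.8 TPM. RNF212, a crossover ligase, had 23.8 ± 7.16 and 1.13 ± 0.979 TPM, and RAD21L1, a meiotic cohesin subunit, 1.08 ± 0.361 and 0.00534 ± 0.0148 TPM. MEIOB, the partner of SPATA22, had 24.6 ± 4.21 TPM in testis and 4.48 ± 2.83 TPM elsewhere, with up to 11.12 TPM in BMI bulbourethral gland replicate 1 and 16.5 TPM in DSE testis replicate 2. At all 4 loci every testis library lay above every other library. A locus sum may hold transcripts of a neighbouring gene.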

How the data were processed

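RNA-seq values were deposited as TPM per transcript, which the authors estimated with Salmon 1.9.0 against an annotation they assembled from Iso-seq reads and Ensembl on susScr11 (Sscrofa11.1). The submitters' notes also name STAR 2.7.10a, GSNAP and Bowtie 1.3.1. The labels state rRNA depletion and the study's methods poly-T beads, so the selection of RNA is uncertain. TPM keeps no depth. Full-length read counts per isoform and library were deposited by the authors, with lengths, exons and predictions as other values. The small RNA libraries were not used.

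TPM were summed by gene name. Log2(TPM + 1) was fitted with limma 3.58.1 (R 4.3.3) over genes with at least 1 TPM in 3 of the libraries fitted, with 1 mean per breed and organ and all 30 libraries for contrasts between organs, and 6 libraries for breeds within an organ. A call needed a difference of at least 1 and p below 0.05 after Benjamini-Hochberg adjustment over all genes tested. Transcript shares were fitted alike, for genes of at least 1 TPM in every library and mean shares of at least 0.05, with a difference of at least 0.1. Figures were drawn with matplotlib 3.10.9 and tables made with scipy 1.17.1, pandas 2.3.3 and numpy 2.4.6 under Python 3.11.15. The fits were tested on simulated data. Read shares have exact 95% intervals.

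Members and lists were chosen with earlier results of these data known. Values in every testis library were given for the most abundant and the least changed member of each role, for members called between breeds and for those of at least 1 TPM in another organ. Other libraries were mostly given by a range, a median or a highest value. The 3 largest and 3 smallest differences of each comparison list, the top testis transcript of each member and each transcript with a called share were named. A gene of the comparison lists and an upstream sequence are not reported here. After group means were removed, testis libraries correlated with same-numbered libraries of each other organ at r from -0.19 to 0.29. For DSE testis and vesicular gland, r was 0.293, 0.249 and 0.151 in replicates 1, 2 and 3. Pairs among the organs other than testis were not examined. The numbers were not taken as pairs, but this check does not exclude that same-numbered libraries share a boar. No library pair held identical values, and r within groups was 0.898 to 0.992.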

Additional observations from a re-analysis of the deposited data

Results flagged for a closer look

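Among 70 groups of 6 libraries of 1 member in 1 organ, examined where the highest library reached 1 TPM, 11 had a library past Dixon's 95% critical value. Chance flags about 1 in 20 unselected groups, but 7 of the 11 reached 1 TPM in the outlying library alone, so that share is no yardstick here. In testis this was STAG3, at 49.75 TPM in DSE replicate 2 against 140.2 to 188 TPM in the other 5 libraries. TEX12 stood out in replicate 3 of DSE in 3 organs, with 1.997 TPM in epididymis, 1.228 TPM in vesicular gland and 1.221 TPM in prostate gland, where the other libraries reached at most 0.236, 0.131 and 0.0893 TPM.

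In epididymis, MEI1 was high in DSE replicate 2 (7.569 TPM against at most 2.31), and DSE replicate 1 was far from the rest for MSH5 (12.44 TPM against at most 2.19), TEX14 (2.917 TPM against at most 0.885) and the transcripts named MSH4 (22.95 TPM against at least 38.1), all of it over RABGGTB in that library. That library also held CRISP1, an epididymal gene, at 21.3 TPM against at least 1100 TPM in the other epididymis libraries. The study reported for it the lowest median transcript integrity number of all its RNA-seq libraries. SPATA22 in DSE prostate replicate 2 (1.171 TPM), MLH3 in DSE bulbourethral replicate 3 (1.08 TPM) and CCNB1IP1 in BMI bulbourethral replicate 2 (1.291 TPM) completed the set.

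SPO11 was flagged because its breed difference in testis differed from that in the other organs by -1.075 (limma, adjusted p = 0.00272), with all 3 DSE testis libraries below all 3 BMI ones. SPO11 was at or near 0 in the other organs, so the contrast restates its testis difference. Without DSE testis replicate 2 the value was -0.71, and without replicate 1, 2 or 3 of all groups the adjusted p was 0.058, 0.0673 or 0.0767.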

How the results depend on the processing

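The count of 25 members higher in testis was 25 or 26 under another pseudocount, no filter, size factors, the replicate block and each replicate left out, and 17 of 19 with Ensembl transcripts alone. MSH4 reversed from -0.09 to 1.712 when its 6 transcripts over RABGGTB were left out, an alternative chosen after seeing the data that altered no other member. In epididymis the count of 2 became 11 with a pseudocount of 0.1, 1 with size factors and 0 with Ensembl transcripts alone (SYCP2 at 0.93), and 2 to 4 without single replicates. Size factors moved the median of all genes there from 0.41 to 0.03. No breed count in testis moved from 0 except to 3 in 1 fit of all organs. The interaction count of 1 became 3 with size factors, 3 with the replicate block, 0 to 1 without single replicates (SPO11 was lost each time, and SYCP1 at -1.23 was the 1 gained, without replicate 3), and 0 without DSE testis replicate 2, also chosen after seeing the data. The 7 changed shares became 2 with a gene minimum of 5 TPM, where 3 transcripts were tested, and 4 to 7 without single replicates. The 4 were found without replicate 3, and the 7 without replicate 2 had ENSSSCT00000023892 of MSH4 in place of ENSSSCT00000004178. The causes were not tested. The replicate block changed no other member count, but moved the counts of all genes called higher and lower between breeds from 35 and 61 to 93 and 134 in testis, from 25 and 79 to 64 and 601 in vesicular gland and from 43 and 5 to 0 and 0 in prostate gland. TPM keeps no depth, so levels below 1 TPM have no counting interval.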
